A study of Mus musculus with 4 samples.

Results

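The genes described here are those that the deposited annotation of the arrays places under the gene ontology term cell division. The rule reads that term alone, from probe sets with a single gene symbol, and uses no measured value, although the term was picked with earlier results of these data known. The term covered 459 probe sets and 206 genes, of 20461 genes measured, and another 37 probe sets with the term named several genes or none and were left out. Of the 206 genes, 195 also carried the term cell cycle, 135 the term mitosis and 10 the term cytokinesis. Gene expression was measured in the muscularis of the jejunum of 2 smDicer KO and 2 WT mice at 3 weeks of age, with 1 Affymetrix array per mouse. The smDicer KO mice carried floxed Dicer alleles and a Cre-GFP transgene (smDicer-/-;Cre-GFP/+) that is driven by the promoter of Myh11, the smooth muscle myosin heavy chain gene. By design Dicer is deleted in smooth muscle cells, while the neurons, glia, immune cells and other cells of the tissue still express it. The authors' table of genotypes lists the knockout as Dicer lox/Δ, with 1 floxed and 1 deleted allele, and their methods as lox/lox. Whether those other cells keep 1 or both copies was not settled in the sources used here. The labels call the controls wild type, the methods speak of siblings and of WT smMHC Cre-GFP/+ mice, and the genotype of the 2 WT arrays beyond wild type was not given in the sources used here. The methods name the small intestine where the labels name the jejunum, and they describe the muscle as stripped of mucosa and submucosa.

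Cell division needs the copied chromosomes to be condensed, attached to a bipolar spindle, pulled apart and enclosed in separate daughter cells. Cyclins and their kinases drive entry into mitosis, the spindle checkpoint holds the cell until every kinetochore is attached, and the anaphase-promoting complex then marks cyclin B and securin for destruction. Smooth muscle cells of the gut still divide in young mice and become largely quiescent later, while the crypts of the intestinal epithelium hold some of the most rapidly dividing cells of the body. Many genes of the term, such as the cohesin subunits, the septins and the polarity genes, also work in cells that do not divide.

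Values are log2 expression values after robust multi-array averaging (RMA), and those under about 6 lie near background. The probe set with the highest mean stood for each gene, and 156 of the 206 genes averaged at least 6 over the 4 arrays. Differences are smDicer KO minus WT on the log2 scale. They were tested with limma, a linear model that shares the variance across probe sets, with Benjamini-Hochberg adjustment over all 45037 probe sets. Values are given for replicate 1 and then replicate 2 of each genotype, and the numbers are not stated to pair mice. Dicer1 itself had log2 values of 7.52 and 7.36 on the smDicer KO arrays and 7.82 and 8.08 on the WT arrays, a difference of -0.51 (standard error 0.16, adjusted p = 0.271). The probes of Dicer1 were not placed relative to the deleted exons here. Across probe sets, Pearson's r was 0.973 between the smDicer KO arrays, 0.992 between the WT arrays and from 0.953 to 0.979 between genotypes. The smooth muscle markers were strong on every array (median level 13.39 over 8 genes), and their median difference was -0.27. All 10 markers of mucosal epithelium were higher in smDicer KO. Relative to the WT mean their median was 2.85 on the first smDicer KO array and 5.75 on the second.

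In the smDicer KO muscularis the cell division genes were mostly lower than in WT, by a small amount. Of the 206 genes, 157 were lower and 49 higher in smDicer KO (76.2% lower, where 55.6% of all genes were), and the median difference was -0.28, against -0.04 over all genes measured. None of the members passed an adjusted p of 0.05 in the limma test, and the share that passed was 0% over all genes and 0% over all probe sets. Counts are therefore given at an unadjusted limma p under 0.05, which is what "fell", "rose" and "passed the threshold" mean below. At that threshold 40 members fell and 11 rose. These were 19.4% and 5.34% of the members, where 10.5% of all genes fell and 7.19% rose. Among genes averaging at least 6, 36 of 156 members fell and 11 rose, against 15.8% and 9.9% of all such genes. Both smDicer KO arrays lay below both WT arrays in 91 members and above them in 24, where the shares over all genes were 30.2% and 21.5%, and in the other 91 the genotypes overlapped. The design allows no p below 0.333 in an exact permutation test.

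The counts depended on single arrays and on the scaling. The median difference was -0.17 without smDicer KO array 1. Without WT array 1, 9 members fell and 3 rose, and without WT array 2, 19 fell and 2 rose. After cyclic loess scaling the split was 30 fallen and 16 risen members. In such a tissue sample fewer cells of a type and less RNA per cell cannot be told apart.

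**Figure D1:**
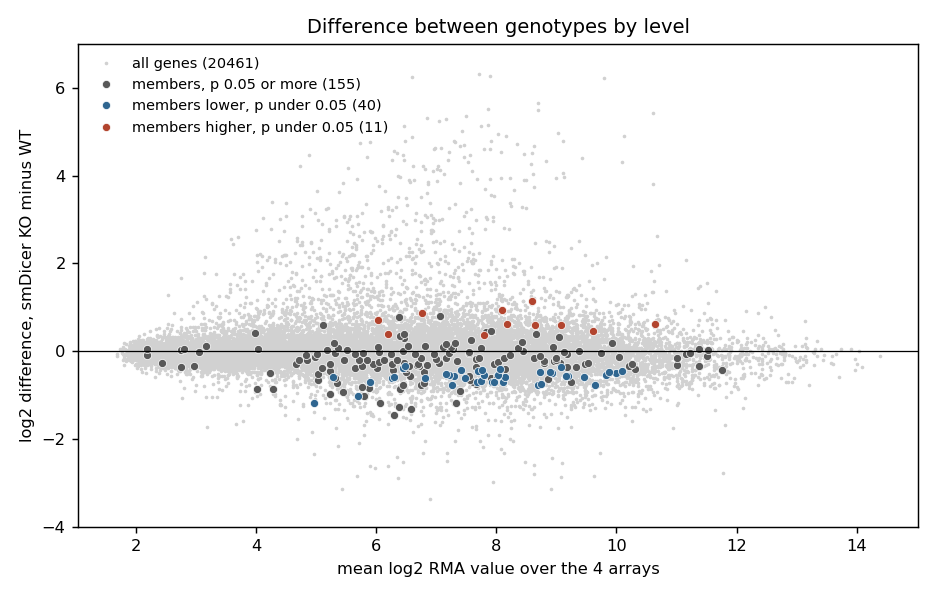
Difference between genotypes (smDicer KO minus WT, log2, vertical axis) against the mean log2 RMA value over the 4 arrays (horizontal axis). Grey dots are all 20461 genes and larger points the 206 cell division genes, of which 40 were lower and 11 higher at an unadjusted p under 0.05. The members lie in a narrow band between -1.46 and 1.14, while all genes span -3.37 to 6.31.

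Among members averaging at least 6, those with the largest differences between mice of the same genotype, named for that, were genes of mitosis. Birc5, which encodes the passenger protein survivin, had values of 4.65 and 7.40 on the smDicer KO arrays and 6.82 and 5.66 on the WT arrays, so that both the lowest and the highest value came from smDicer KO mice. Its difference of -0.21 had a standard error of 1.0 (adjusted p = 0.942). Aspm, a spindle pole protein gene, had the lowest difference of all members, -1.46 (standard error 0.71, adjusted p = 0.399), with values of 4.68 and 6.44 in smDicer KO and 7.61 and 6.43 in WT. The second smDicer KO array was thus at the level of the second WT array, and the low mean came from the first.

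The same order of arrays held for Ccnb2, the cyclin B2 gene (5.49 and 7.36 in smDicer KO, 7.69 and 6.63 in WT), and for Ube2c, the ubiquitin-conjugating enzyme of the anaphase-promoting complex (6.91 and 8.54 in smDicer KO, 8.98 and 7.62 in WT). Cdca8, which encodes the passenger protein borealin, had 5.50 and 7.25 in smDicer KO and 7.65 and 6.61 in WT, and its other 2 probe sets also had their lowest value on smDicer KO array 1 and their highest on WT array 1. Cdca3, a trigger of mitotic entry, had 5.32 and 7.22 in smDicer KO and 7.23 and 6.25 in WT. In all 4 genes the smDicer KO and WT ranges overlapped, and limma's adjusted p lay between 0.636 for Cdca8 and 0.796 for Cdca3.

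Genes of the same machinery looked at after their values were seen gave the same picture. Cdk1, the mitotic kinase that binds cyclin B (array symbol Cdc2a), had values of 6.29 and 7.57 in smDicer KO and 8.29 and 7.40 in WT (difference -0.91, standard error 0.53, adjusted p = 0.465). Plk1, the polo-like kinase, had 5.28 and 6.37 in smDicer KO and 6.70 and 5.71 in WT, and Ccnb1, the cyclin B1 gene, 4.72 and 5.82 in smDicer KO and 6.90 and 5.71 in WT. For each of these genes WT array 1 was highest and smDicer KO array 1 lowest. That order was found in 55 of the 206 members (26.7%) and in 1705 of all 20461 genes (8.33%). smDicer KO array 1 was below array 2 by more than 1 in 26 members, 24 of them with the term mitosis, and above it by more than 1 in Septin6 alone (8.53 and 7.35 in smDicer KO, 8.40 and 8.28 in WT). WT array 1 exceeded WT array 2 by more than 1 in 11 members.

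Of the 135 members with the term mitosis 20 fell (14.8%, against 10.5% of all genes). Relative to the WT mean the median of these 135 members was -0.29 on the first smDicer KO array and -0.14 on the second. Among the 71 members without that term both smDicer KO arrays lay at nearly the same distance, -0.29 and -0.25, and 20 fell (28.2%). Across the 135 members with the term mitosis, Pearson's r between the difference of the smDicer KO arrays and that of the WT arrays was -0.722, which describes these genes only, since all of them were read from the same 4 arrays. It was 0.259 over all genes. The order of the replicate numbers carries no stated meaning, and exchanging the numbers of the WT arrays would reverse the sign of both values.

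**Figure D2:**
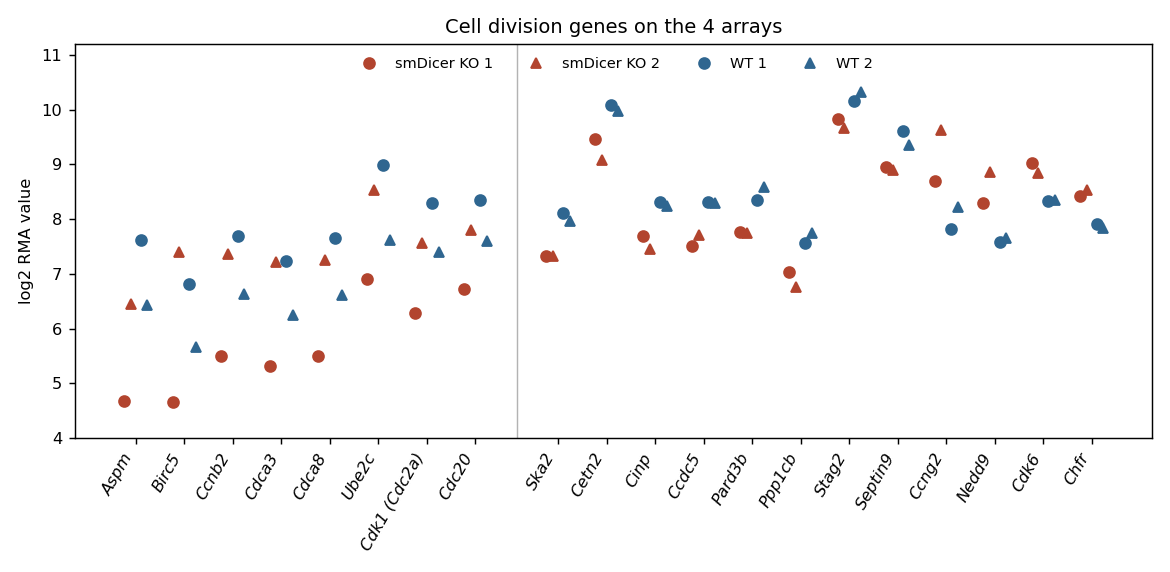
Log2 RMA value (vertical axis) of 20 cell division genes, with 1 point per array, smDicer KO in red and WT in blue, circles for replicate 1 and triangles for replicate 2. To the left of the line are 8 mitotic genes, whose smDicer KO replicate 1 is the lowest of the 4 values and whose genotypes overlap, and to the right 12 genes whose 2 smDicer KO values lie on one side of both WT values.

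Other genes also differed between these arrays, not all in the order of the mitotic genes. Relative to the WT mean the epithelial markers had medians of -0.56 on the first WT array and 0.56 on the second, the opposite of the mitotic genes named above. The summed level of the 10 epithelial markers on the linear scale was 18925 and 64084 on the smDicer KO arrays and 3752 and 4109 on the WT arrays. Of 7 crypt base markers 6 were higher in smDicer KO, none passed the threshold, and their summed level was 2155 and 9238 in smDicer KO and 1938 and 2019 in WT. Olfm4, a crypt stem cell gene, had 3.16 and 10.52 in smDicer KO and 3.30 and 3.07 in WT, and Myb, a transcription factor gene of crypt and blood progenitors, had 3.58 and 7.58 in smDicer KO and 3.53 and 3.55 in WT, both picked after their values were seen. Lyz1, a lysozyme gene of Paneth cells and macrophages picked likewise, had 10.08 and 12.74 in smDicer KO and 9.56 and 10.09 in WT. These 3 genes were highest on the second smDicer KO array, whereas the other crypt markers differed less between arrays. The interferon response genes went the other way, at a median of 3.10 on the first smDicer KO array and 0.76 on the second. The part of these cells and responses in the mitotic values was not tested.

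A minority of the members shared promoter letters that the gene ontology term did not use. RefSeq promoters (GRCm38.p6, 250 bases before to 50 after the first listed transcription start) were matched for 164 of the 206 members. They were searched on both strands for TTTGAA, the core of the cell cycle genes homology region (CHR) that binds the DREAM and MuvB complexes, and for CCAAT, the box that binds NF-Y. TTTGAA was found in 26.8% of the members' promoters and 13.2% of those of 13935 genes measured, and CCAAT in 42.7% and 38.2%. Both letters together were in 15.2% of members, 19.6% of the 107 members with the term mitosis and 5.37% of the genes measured. Over all 27025 promoters of the table the shares were 18.1% for TTTGAA, 37.9% for CCAAT and 7.12% for both. The 2 motifs may share a base, as they do in Cdca8.

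Promoters are shown for 4 members with both motifs, picked from the mitotic genes described above, and for 2 members that differed between the genotypes. Aspm, Cdca3 and Plk1 also held both motifs and are not shown, while Ccnb1, described with them, held CCAAT without TTTGAA. Capitals mark TTTGAA and CCAAT or their reverse complements, and each sequence is written along the strand of its gene, given by the sign after its coordinates.
Cdk1 (chr10:69352863-69353162, -): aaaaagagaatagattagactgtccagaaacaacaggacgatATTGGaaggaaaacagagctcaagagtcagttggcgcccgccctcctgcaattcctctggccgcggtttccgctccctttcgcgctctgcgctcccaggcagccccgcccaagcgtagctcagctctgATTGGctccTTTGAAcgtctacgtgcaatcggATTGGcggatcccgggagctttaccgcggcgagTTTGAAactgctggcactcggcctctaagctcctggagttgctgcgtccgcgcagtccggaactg
Ccnb2 (chr9:70421505-70421804, -): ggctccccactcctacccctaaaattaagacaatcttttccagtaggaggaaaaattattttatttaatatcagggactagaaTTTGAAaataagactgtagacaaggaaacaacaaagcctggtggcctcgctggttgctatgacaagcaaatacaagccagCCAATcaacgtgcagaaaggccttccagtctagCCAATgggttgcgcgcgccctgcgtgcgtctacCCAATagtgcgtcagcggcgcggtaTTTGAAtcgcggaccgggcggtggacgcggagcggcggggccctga
Ube2c (chr2:164769679-164769978, +): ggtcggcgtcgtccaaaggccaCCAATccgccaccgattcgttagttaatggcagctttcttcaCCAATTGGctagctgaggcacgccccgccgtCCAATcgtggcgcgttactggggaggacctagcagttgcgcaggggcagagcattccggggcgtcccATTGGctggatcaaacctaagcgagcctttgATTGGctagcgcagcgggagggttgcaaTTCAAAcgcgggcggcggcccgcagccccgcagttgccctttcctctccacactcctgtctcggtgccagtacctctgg
Cdca8 (chr4:124936868-124937167, -): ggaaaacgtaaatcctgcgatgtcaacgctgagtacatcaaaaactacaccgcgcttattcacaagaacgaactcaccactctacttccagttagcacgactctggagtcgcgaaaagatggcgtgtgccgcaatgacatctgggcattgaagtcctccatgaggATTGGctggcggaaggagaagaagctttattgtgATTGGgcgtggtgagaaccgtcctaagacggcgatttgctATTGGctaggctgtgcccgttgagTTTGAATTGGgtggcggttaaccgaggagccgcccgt
Ska2 (chr11:87109011-87109310, +): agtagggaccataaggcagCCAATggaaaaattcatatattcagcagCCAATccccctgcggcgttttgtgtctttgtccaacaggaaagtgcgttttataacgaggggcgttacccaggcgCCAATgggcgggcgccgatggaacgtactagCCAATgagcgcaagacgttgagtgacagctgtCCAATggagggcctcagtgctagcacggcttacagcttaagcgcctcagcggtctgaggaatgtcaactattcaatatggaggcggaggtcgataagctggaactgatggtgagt
Ccng2 (chr5:93267323-93267622, +): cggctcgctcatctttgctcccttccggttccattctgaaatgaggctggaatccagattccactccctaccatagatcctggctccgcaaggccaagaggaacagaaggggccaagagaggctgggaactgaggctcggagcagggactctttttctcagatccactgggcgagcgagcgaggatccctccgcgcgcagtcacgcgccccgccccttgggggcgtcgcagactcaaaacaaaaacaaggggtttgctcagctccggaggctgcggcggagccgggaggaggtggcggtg
Counting from the start site, with the last base before it as -1, TTTGAA began at -71 and -15 in Cdk1, at -167 and 5 in Ccnb2, at -29 in Ube2c and at 14 in Cdca8. Between 3 and 6 CCAAT boxes accompanied it. Ska2 had 5 CCAAT boxes and no TTTGAA, and Ccng2 had neither in this window.

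Of the 25 members with both motifs 24 were lower in smDicer KO, with a median difference of -0.66, and 1 of them fell, Pds5b. Over all genes 55.6% were lower, 10.5% fell and 7.19% rose. Differences of genes outside the term with both motifs were not examined. The values that follow are of the members only. Relative to the WT mean the median of the 25 members was -1.06 on the first smDicer KO array and -0.08 on the second. Without smDicer KO array 1 their median difference was -0.08, and without WT array 1 it was -0.23. In the 139 members without both motifs the median was -0.26 and was -0.20 on each smDicer KO array, and 31 fell and 10 rose. Of the 26 members in which smDicer KO array 1 was lower by more than 1, 13 had both motifs, 11 had a promoter without both and 2 had none matched, and Cuzd1 and Birc5, with the widest gaps, were among those without both. No test was made of this split, since genes of 1 array are not independent.

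**Figure D3:**
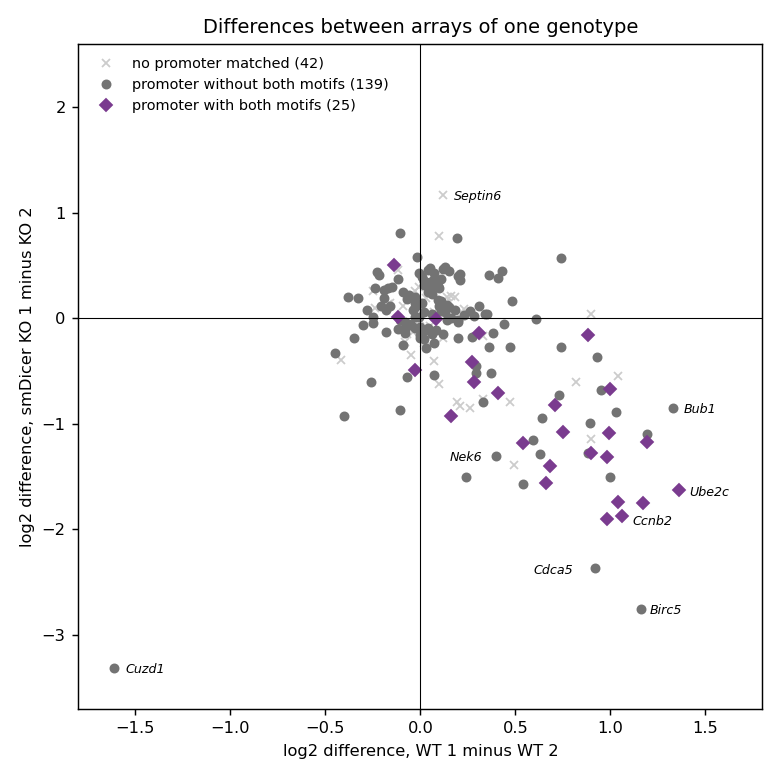
Difference between the smDicer KO arrays (replicate 1 minus replicate 2, log2, vertical axis) against the same difference between the WT arrays (horizontal axis), with 1 point per cell division gene. The 25 genes whose promoter holds both motifs (purple) lie mainly at the lower right, with a median of -1.08 between the smDicer KO arrays and 0.71 between the WT arrays, while the 139 genes without both (grey) centre near 0.03 and 0.07. Left and right, and up and down, depend on how the replicates were numbered.

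Counts in the lists of genes from here on stand beside shares over all genes of 55.6% lower, 10.5% fallen and 7.19% risen. Both smDicer KO arrays lay below both WT arrays in 30.2% of all genes and above them in 21.5%. Among genes averaging at least 6 these shares were 36.9% and 24.3%. The genotypes overlapped in 9894 of all 20461 genes. The chromosomal passenger complex, which corrects faulty attachments of chromosomes to the spindle, had its 3 members between -0.76 and -0.04, and none fell (1 of them, Incenp, was at 0.05 after cyclic loess scaling). Incenp, the scaffold of the complex, had 6.80 and 7.59 in smDicer KO and 7.47 and 7.0 in WT. Relative to the WT mean the 3 genes had a median of -1.59 on the first smDicer KO array and 0.36 on the second, the widest split of the role lists.

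Among the 15 genes of kinetochore and centromere, 14 were lower in smDicer KO, 2 fell and none rose. Ska2, a subunit of the complex that couples kinetochores to shortening microtubules, had nearly the same value in both smDicer KO mice. It had values of 7.33 and 7.32 on the smDicer KO arrays and 8.11 and 7.96 on the WT arrays, a difference of -0.71 (standard error 0.13, adjusted p = 0.226), or 0.611 times the WT level. Its second probe set had a difference of -0.44 and did not pass the threshold. Sgol2 (now Sgo2a), a shugoshin that protects centromeric cohesin, fell by 1.01 (standard error 0.35, adjusted p = 0.298), but its values of 5.0 and 5.38 in smDicer KO lay near background, against 6.67 and 5.74 in WT. Clasp1 and Clasp2, which stabilise microtubules at kinetochores, went in opposite directions without passing the test. Clasp1 had 9.42 and 9.22 in smDicer KO and 9.63 and 9.60 in WT, and Clasp2 had 9.04 and 8.67 in smDicer KO and 8.41 and 8.52 in WT. Spc25, a subunit of the NDC80 complex named after its values were seen, had 5.14 and 6.70 in smDicer KO and 7.58 and 6.91 in WT (difference -1.32, adjusted p = 0.359).

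Of the 9 genes of the spindle checkpoint none fell and Zwint rose. Zwint, which anchors the RZZ complex at kinetochores and is also abundant in neurons, had 11.17 and 10.74 in smDicer KO and 10.35 and 10.29 in WT (difference 0.63, standard error 0.19, adjusted p = 0.262). Of its 6 probe sets 5 were higher in smDicer KO and 2 rose. All 8 markers of enteric neurons were also higher in smDicer KO, with a median difference of 0.62 and summed levels of 17755 and 12609 in smDicer KO and 9500 and 8483 in WT, and their part in the Zwint value was not tested. Zw10, the partner of Zwint in that complex, had 7.78 and 7.80 in smDicer KO and 7.65 and 7.76 in WT. Mad2l1, the checkpoint protein that inhibits CDC20, had 6.64 and 7.93 in smDicer KO and 8.35 and 7.72 in WT, again lowest on the first smDicer KO array. Cdc20 itself, named after its values were seen, had 6.72 and 7.80 in smDicer KO and 8.35 and 7.60 in WT.

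All 16 genes of the anaphase-promoting complex and separase were lower in smDicer KO (12 of 16 after cyclic loess scaling), the median difference was -0.28, 4 fell, and in 9 both smDicer KO arrays lay below both WT arrays. Here the second smDicer KO array was the lower, with medians of -0.23 and -0.35 relative to the WT mean. Cdc26, a small subunit that stabilises the complex and was near background in smDicer KO, had 5.64 and 5.45 in smDicer KO and 6.09 and 6.42 in WT (difference -0.71, standard error 0.17, adjusted p = 0.241). Anapc11, the RING subunit that carries the ligase activity, had 9.72 and 9.36 in smDicer KO and 10.20 and 9.99 in WT and fell by 0.55 (adjusted p = 0.285). The scaffold gene Anapc5 and the securin gene Pttg1, the most strongly expressed of the list, did not pass. Anapc5 had 11.19 and 11.06 in smDicer KO and 11.25 and 11.15 in WT, where all 6 probe sets were lower and 1 of them fell, although the gene's difference was 0.06 after cyclic loess scaling, and Pttg1 had 11.03 and 10.68 in smDicer KO and 11.17 and 11.15 in WT. Of the 3 probe sets of Anapc11, 1 near background had a difference of 0.39. The other genes that fell were Anapc1 (-0.48) and Anapc10 (-0.58).

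The rings that hold and compact chromosomes changed little but mostly downward. Of 6 condensin genes 5 were lower in smDicer KO and Smc4 fell. Smc4, the ATPase shared by both condensins, had 8.78 and 8.97 in smDicer KO and 9.50 and 9.38 in WT (difference -0.56, standard error 0.14, adjusted p = 0.241), and all 3 of its probe sets fell. Its partner Smc2 had 6.65 and 7.83 in smDicer KO and 8.18 and 7.63 in WT, which overlap, and the kleisin gene Ncaph had 7.17 and 7.43 in smDicer KO and 7.44 and 6.97 in WT. Condensin II subunit Ncapg2, named after its values were seen, had 4.90 and 6.04 in smDicer KO and 6.94 and 6.35 in WT (difference -1.17, adjusted p = 0.319).

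Of 8 cohesin genes 3 fell and 1 rose. Stag2, the subunit most common in somatic cohesin, had 9.82 and 9.67 in smDicer KO and 10.16 and 10.32 in WT and fell by 0.50 (standard error 0.14, adjusted p = 0.255). Rad21, the kleisin that separase cuts, had 9.72 and 9.74 in smDicer KO and 9.77 and 9.77 in WT (difference -0.04, adjusted p = 0.895), without overlap, and 1 of its 3 probe sets fell. Smc1a had 9.53 and 9.25 in smDicer KO and 9.68 and 9.63 in WT. The paired regulators Pds5a and Pds5b moved apart. Pds5b had 8.64 and 8.13 in smDicer KO and 9.05 and 9.19 in WT and fell by 0.74 (standard error 0.21, adjusted p = 0.258), while Pds5a, at a low level, had 6.40 and 6.36 in smDicer KO and 6.02 and 5.96 in WT and rose by 0.39 (adjusted p = 0.269).

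Of 20 genes of kinesins, dynein and spindle microtubules 16 were lower in smDicer KO (13 after cyclic loess scaling), 4 fell and 1 rose. Haus1 (array symbol Ccdc5), a subunit of the augmin complex that branches spindle microtubules, had 7.50 and 7.71 in smDicer KO and 8.32 and 8.30 in WT (difference -0.70, standard error 0.14, adjusted p = 0.23). The plus-end binding genes Mapre1 and Mapre2 and the dynein regulator Pafah1b1, the most strongly expressed of the list, did not pass. Mapre1 had 11.62 and 11.28 in smDicer KO and 11.59 and 11.51 in WT, Mapre2 11.53 and 11.27 in smDicer KO and 11.22 and 11.46 in WT, and Pafah1b1 10.20 and 9.74 in smDicer KO and 10.12 and 10.09 in WT, so that each pair of ranges overlapped. Prc1, which bundles the midzone microtubules, and Kif20b, a kinesin of the midzone, were picked after their values were seen. Prc1 had 6.08 and 7.39 in smDicer KO and 8.41 and 7.43 in WT (difference -1.19, adjusted p = 0.386), and Kif20b fell by 1.17 (adjusted p = 0.297) at values near background, 4.04 and 4.72 in smDicer KO against 6.03 and 5.07 in WT, and its next probe set had a difference of 0.09.

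Of 15 cytokinesis and septin genes 12 were lower in smDicer KO and 5 fell, the median difference was -0.40, and the medians of the smDicer KO arrays were -0.36 and -0.47. Septins are GTP-binding filament proteins of the cleavage furrow and of the cortex of resting cells. Septin9 had 8.95 and 8.89 in smDicer KO and 9.61 and 9.36 in WT and fell by 0.56 (standard error 0.15, adjusted p = 0.247). Septin2 had 9.96 and 9.81 in smDicer KO and 10.30 and 10.34 in WT and fell by 0.44 (adjusted p = 0.261). Septin4 (-0.61) and Septin10 (-0.43) also fell. Septin7, the core subunit of septin filaments and the most strongly expressed septin, had 11.71 and 11.40 in smDicer KO and 12.02 and 11.93 in WT, without overlap but at adjusted p = 0.319. Anln, which encodes the actin-binding furrow protein anillin, had 8.29 and 8.30 in smDicer KO and 9.38 and 8.77 in WT and fell by 0.78 (standard error 0.24, adjusted p = 0.265). Cep55, the midbody protein that recruits the abscission machinery and a gene named after its values were seen, had 5.0 and 6.51 in smDicer KO and 7.51 and 6.51 in WT (adjusted p = 0.399). In 6 of the 15 genes the genotypes overlapped.

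The centrosome list held 4 genes, of which Cetn2 fell. Cetn2, a centrin of centrioles that also serves DNA repair and nuclear export, had 9.46 and 9.08 in smDicer KO and 10.09 and 9.98 in WT (difference -0.76, standard error 0.17, adjusted p = 0.234), and both of its probe sets fell. Cetn3 had 10.30 and 9.91 in smDicer KO and 10.51 and 10.50 in WT (difference -0.40, adjusted p = 0.366), and Cntrob, which encodes centrobin of the daughter centriole, 6.13 and 5.98 in smDicer KO and 6.12 and 5.99 in WT.

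The mitotic kinases had no uniform direction. Of 11 genes 7 were lower in smDicer KO and 1 fell, Lats2 (-0.54), a kinase of the Hippo pathway, of whose 6 probe sets 2 fell and 1, near background, rose. Nek9, which activates the NIMA-related kinases of the spindle pole, had 10.20 and 9.90 in smDicer KO and 10.30 and 10.46 in WT. Lats1 had 8.96 and 9.02 in smDicer KO and 8.75 and 9.05 in WT, and Nek1, a kinase of cilia and DNA repair, 8.61 and 8.31 in smDicer KO and 8.44 and 8.45 in WT. None of these 3 passed the test.

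Among 16 cyclins and related genes 12 were lower in smDicer KO, 2 fell and 1 rose. The D-type cyclins carry growth signals to CDK4 and CDK6. Ccnd2, the most strongly expressed cyclin of the tissue, had 11.27 and 11.13 in smDicer KO and 11.46 and 11.63 in WT (difference -0.34, standard error 0.14, adjusted p = 0.337), without overlap, and all 7 of its probe sets were lower and 5 fell. Ccnd3 had 9.78 and 9.49 in smDicer KO and 10.02 and 10.19 in WT and fell by 0.47 (adjusted p = 0.293), although 1 of its 3 probe sets was higher. Ccne2 (-0.59), a cyclin of entry into S phase, was the other that fell, at values near background. Cyclin G genes are p53 and FOXO targets linked to arrest. Ccng2 had the highest difference of all members that rose, with 8.70 and 9.63 in smDicer KO and 7.82 and 8.22 in WT, 2.21 times the WT level (difference 1.14, standard error 0.36, adjusted p = 0.274). Its second probe set had a difference of 0.85 and did not pass the threshold. Ccng1 had 10.27 and 9.77 in smDicer KO and 9.90 and 9.77 in WT.

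Of 14 cyclin-dependent kinases and partners 2 fell, Cdc25b (-0.55) and Cdk7 (-0.40), and Cdk6 rose. Cdk6, a kinase of G1, had 9.03 and 8.84 in smDicer KO and 8.33 and 8.35 in WT (difference 0.60, standard error 0.14, adjusted p = 0.234), and 2 of its 3 probe sets rose. Its relative Cdk4 had 8.58 and 8.73 in smDicer KO and 8.98 and 8.86 in WT (difference -0.27, adjusted p = 0.403). The kinases of G1 thus lay on opposite sides of WT, each without overlap, with only Cdk6 past the threshold. Cks1b, a small subunit that helps destroy the inhibitor p27, had 8.81 and 8.97 in smDicer KO and 10.03 and 9.15 in WT. Cdk11b (array symbol Cdc2l1), a kinase of transcription and splicing, had 9.10 and 9.33 in smDicer KO and 8.91 and 8.84 in WT (adjusted p = 0.353).

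Cell polarity genes, which orient the spindle in asymmetric divisions and build cell junctions, differed without regard to the mitotic order of arrays. Of 6 genes 3 fell and 1 rose. Pard3b had 7.76 and 7.75 in smDicer KO and 8.34 and 8.59 in WT (difference -0.71, standard error 0.14, adjusted p = 0.231), and Pard6g 7.52 and 7.31 in smDicer KO and 8.16 and 8.01 in WT (difference -0.67, adjusted p = 0.234), with both of its probe sets fallen. Pard6b had 6.89 and 7.49 in smDicer KO and 6.19 and 6.45 in WT and rose by 0.88 (standard error 0.25, adjusted p = 0.256). Pard6b was higher on the second smDicer KO array, as the epithelial markers were, whose part was not tested. Pard6a (-0.39) was the other that fell. Pard3 had 7.87 and 7.79 in smDicer KO and 8.10 and 8.14 in WT, and Cdc42, the small GTPase that activates the PAR complex, 11.25 and 11.17 in smDicer KO and 11.30 and 11.19 in WT.

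Of the protein phosphatase 1 catalytic genes, which reverse mitotic phosphorylation and whose beta isoform is also the catalytic subunit of myosin phosphatase in muscle, Ppp1cb fell. It had 7.03 and 6.76 in smDicer KO and 7.56 and 7.74 in WT (difference -0.76, standard error 0.16, adjusted p = 0.234). Ppp1ca had 10.98 and 10.89 in smDicer KO and 11.10 and 11.09 in WT, and Ppp1cc 11.42 and 11.67 in smDicer KO and 11.47 and 11.56 in WT, neither past the threshold.

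Replication and DNA ligation genes within the term numbered 10, of which 7 were lower in smDicer KO and Tipin and Lig4 (-0.34) fell. Tipin, which protects stalled replication forks, had 8.72 and 8.62 in smDicer KO and 9.28 and 9.05 in WT (difference -0.50, adjusted p = 0.258). Mcm5, a subunit of the replicative helicase, had 6.99 and 7.98 in smDicer KO and 8.27 and 7.38 in WT, and Lig1, the ligase of lagging strands, 6.84 and 7.77 in smDicer KO and 7.57 and 6.94 in WT, both with overlap. Of 5 synaptonemal complex genes of meiosis 4 lay near background on every array, none fell and none rose. Syce2 had 5.80 and 6.33 in smDicer KO and 6.68 and 6.30 in WT, Sycp3 2.71 and 2.90 in smDicer KO and 2.96 and 3.31 in WT, and Syce1 3.44 and 3.00 in smDicer KO and 3.33 and 2.90 in WT.

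**Figure D4:**
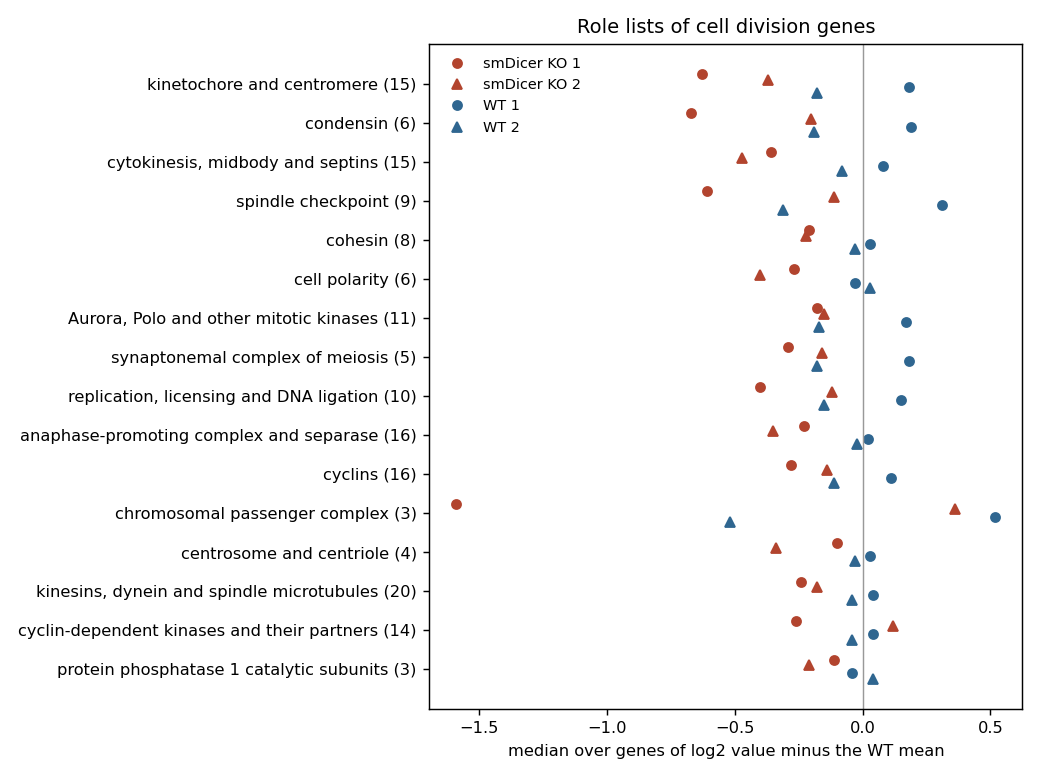
Distance from the WT mean in log2 units, as the median over the genes of each role list (horizontal axis), with 1 point per array, smDicer KO in red and WT in blue, circles for replicate 1 and triangles for replicate 2, and the number of genes in brackets. The passenger complex splits the smDicer KO arrays most (-1.59 and 0.36), whereas cohesin (-0.21 and -0.22) and cytokinesis with septins (-0.36 and -0.47) place both smDicer KO arrays below both WT arrays.

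The remaining 45 members had roles outside these lists, and 9 of them fell and 5 rose. Cinp, a partner of CDK2 in genome maintenance, had 7.69 and 7.45 in smDicer KO and 8.31 and 8.24 in WT (difference -0.71, standard error 0.14, adjusted p = 0.231). Fer (array symbol Fert2), a tyrosine kinase of cell adhesion, had 7.25 and 7.09 in smDicer KO and 7.85 and 7.74 in WT (difference -0.62, adjusted p = 0.234), and both of its probe sets fell. For both genes the smDicer KO values lay below both WT values by at least 0.49 and were close to each other.

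Genes that rose in this remainder were Nedd9, Cdc14a, Chfr, Cd2ap and Bin3. Nedd9, a scaffold of focal adhesions and of the kinase Aurora A, had 8.29 and 8.86 in smDicer KO and 7.59 and 7.66 in WT (difference 0.95, standard error 0.22, adjusted p = 0.237), and all 4 of its probe sets were higher and 2 rose. Cdc14a, a phosphatase that opposes mitotic kinases and was near background in WT, had 6.33 and 6.42 in smDicer KO and 5.64 and 5.72 in WT (difference 0.70, adjusted p = 0.226). Chfr, a ubiquitin ligase that delays entry into mitosis under stress, had 8.43 and 8.53 in smDicer KO and 7.91 and 7.83 in WT (difference 0.61, adjusted p = 0.233), and 2 of its 3 probe sets rose. Cd2ap, an adaptor of actin at cell contacts, had 9.28 and 9.47 in smDicer KO and 8.88 and 8.68 in WT (difference 0.60, adjusted p = 0.242).

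Cuzd1, a gene named for its zona pellucida-like domain and picked after its values were seen, had the largest difference between mice of 1 genotype, with 3.77 and 7.08 in smDicer KO and 4.01 and 5.62 in WT. It was the one member in which both second arrays exceeded the first by more than 1. The 10 epithelial markers had a median of -2.16 for the first smDicer KO array minus the second and of -1.11 for the same difference between the WT arrays, and their part in the Cuzd1 value was not tested.

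Lists of cell cycle genes outside the term were described in the same way. Of 24 replication licensing and fork genes that are not members 20 were lower in smDicer KO and 3 fell, and their medians on the smDicer KO arrays were -0.50 and -0.04. The most strongly expressed were Pcna, the sliding clamp (10.10 and 10.79 in smDicer KO, 11.02 and 10.65 in WT), Mcm7 (8.80 and 9.32 in smDicer KO, 9.38 and 8.82 in WT) and the licensing factor Cdt1 (7.97 and 8.67 in smDicer KO, 8.62 and 7.97 in WT). In all 3 the genotypes overlapped, and none passed the threshold.

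Nucleotide supply and chromatin genes of dividing cells had a wider split, with medians of -1.06 and 0.09 on the smDicer KO arrays, and 12 of 14 were lower in smDicer KO and 2 fell. Without smDicer KO array 1 their median difference was 0.09. The proliferation marker Mki67, named after its values were seen, had 6.45 and 8.25 in smDicer KO and 8.54 and 7.73 in WT, and Top2a, the topoisomerase of mitotic chromosomes chosen in the same way, 6.30 and 8.18 in smDicer KO and 8.36 and 7.61 in WT. H2afz, a histone H2A variant gene that is expressed outside S phase too, had 11.05 and 11.58 in smDicer KO and 12.01 and 12.17 in WT and fell by 0.78 (adjusted p = 0.257). H2afx had 8.02 and 8.64 in smDicer KO and 8.64 and 8.34 in WT, and the maintenance methyltransferase Dnmt1 8.46 and 8.34 in smDicer KO and 8.58 and 8.26 in WT.

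A list with the genes of the factors that bind the motifs above fell at a share near that of all genes. Of 23 E2F, DREAM and mitotic transcription factor genes 3 fell (13%, against 10.5% of all genes) and 1 rose (4.35%, against 7.19%). The median of the 23 genes was -0.14 and -0.05 on the smDicer KO arrays. Those that fell were Lin52, of the MuvB complex (-0.59, adjusted p = 0.274), Rbl2, which encodes the DREAM pocket protein p130 (-0.47, adjusted p = 0.267), and Nfyb, a subunit of the CCAAT-binding NF-Y (-0.40, adjusted p = 0.303), and E2f5 rose (0.36, adjusted p = 0.29). The most strongly expressed genes of the list did not pass. Nfyc, another NF-Y subunit, had 8.88 and 8.94 in smDicer KO and 9.04 and 9.12 in WT. The E2F partner Tfdp1 had 8.83 and 8.74 in smDicer KO and 9.17 and 9.0 in WT, and Tfdp2 8.44 and 8.52 in smDicer KO and 8.79 and 9.34 in WT (adjusted p = 0.319). All 3 lay below WT on both smDicer KO arrays.

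Of 11 inhibitors of the cell cycle 6 were higher and 5 lower in smDicer KO, 2 rose, Cdkn1a and Cdkn1c (0.39), and 1 fell. The one that fell was Cdkn2c, also named after its values were seen. It had 8.15 and 8.09 in smDicer KO and 9.23 and 8.82 in WT (difference -0.91, standard error 0.18, adjusted p = 0.231). Cdkn1a, which encodes the CDK inhibitor p21 and is named after its values were seen, had 9.59 and 9.85 in smDicer KO and 7.98 and 8.19 in WT (difference 1.64, standard error 0.16, adjusted p = 0.215), 3.11 times the WT level. The authors reported Cdkn1a as raised in smDicer KO tissue, but by quantitative PCR it was not detected in sorted smDicer KO smooth muscle cells. The part of Cdkn1a in the values of the members was not tested. Cdkn1b, the p27 gene, had 9.96 and 9.67 in smDicer KO and 9.89 and 9.98 in WT. The antiproliferative genes Tob1 (9.09 and 9.92 in smDicer KO, 8.79 and 9.0 in WT) and Tob2 (9.40 and 9.48 in smDicer KO, 9.40 and 9.92 in WT) did not pass.

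**Figure D5:**
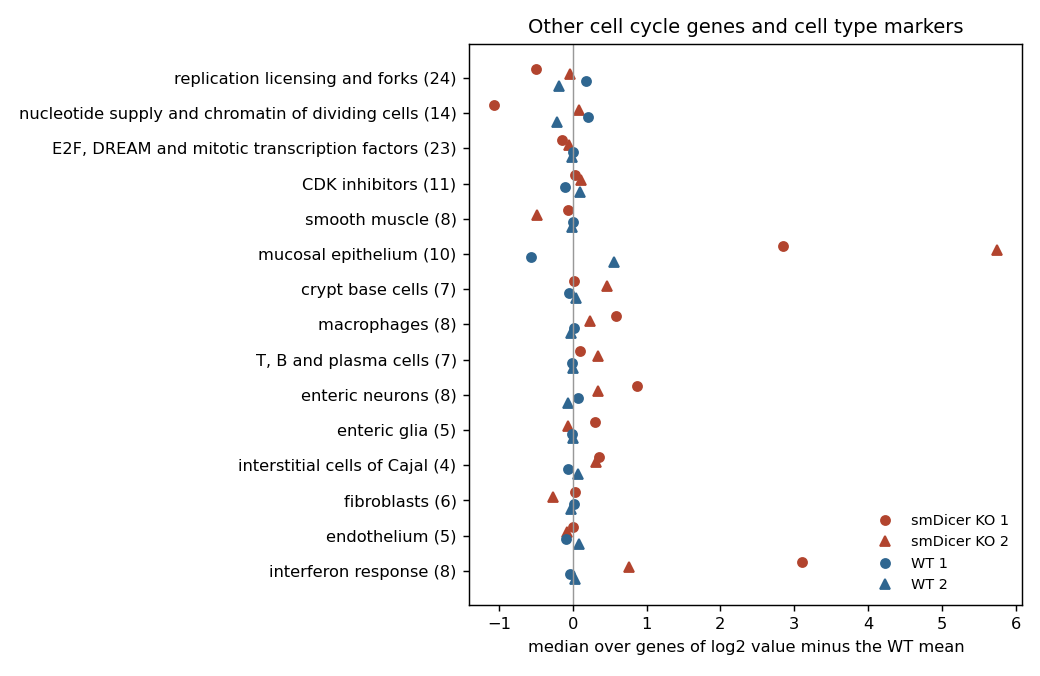
Distance from the WT mean in log2 units, as the median over the genes of each list (horizontal axis), with 1 point per array, smDicer KO in red and WT in blue, circles for replicate 1 and triangles for replicate 2. The upper 4 lists are cell cycle genes outside the term and the others markers of cell types and of the interferon response, among which mucosal epithelium (2.85 and 5.75 on the smDicer KO arrays) and interferon response (3.10 and 0.76) split those arrays in opposite orders.

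Several probe sets per gene gave a further check of the members. Of all 459 probe sets 331 were lower and 128 higher in smDicer KO, 75 fell and 19 rose, where 9.4% of all 45037 probe sets fell and 6.41% rose. Of 62 members with several probe sets averaging at least 6, 50 had all of them in 1 direction. None of the other 12, Rad21, Ccnd3, Ccng1, Ncaph and Ppp1cc among them, had probe sets of that level that passed the threshold in both directions.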

How the data were processed

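RNA of the jejunal muscularis of 2 smDicer KO and 2 WT mice was hybridised to 1 Affymetrix mouse array each. The deposited log2 values were made by the authors with RMA (background correction, quantile normalization and a summary of the probes of each probe set) in Omicsoft Array Studio, whose version was not given in the sources used here. The authors also deposited their own fold changes and p-values for this contrast, which were not used. The same deposited table gave the gene symbols and ontology terms, and 16 members with a date-like or clone symbol were named through their Entrez identifiers.

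The 64 control probe sets were left out, and limma (version 3.58.1, R 4.3.3) was fitted to the 45037 others with genotype as the only term (lmFit and eBayes, prior degrees of freedom 2.49), with Benjamini-Hochberg adjustment. The script was tested on simulated data. Where a gene had several probe sets, the one with the highest mean over the 4 arrays was used. Named were the 12 lowest and 8 highest members past an unadjusted p of 0.05 with a mean of at least 6 in the higher genotype, the 3 most strongly expressed genes of each list, and the members with the largest differences between arrays of 1 genotype (6 in smDicer KO, 3 in WT) and a mean of at least 6. Genes given in brackets with their difference, and those stated to be picked later, were chosen after their values were seen. The members and lists were chosen with earlier results of these data known. With 2 arrays a genotype, their number limits the precision. The p-values set each difference against the spread between these mice, moderated by the variance shared across probe sets. The alternatives were other variance estimates, scalings, filters, choices of probe set, control probe sets kept, a replicate block, and each array left out. Summaries were made with pandas 2.3.3 and numpy 2.4.6 and figures with matplotlib 3.10.9.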

Additional observations from a re-analysis of the deposited data

How the results depend on the processing

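None of the members passed an adjusted p of 0.05 in limma under any alternative. Of the members 40 fell and 11 rose at an unadjusted p under 0.05. With the unmoderated linear model 26 fell. Leaving out 1 array at a time gave 9 to 50 fallen and 2 to 15 risen members: 9 and 3 without WT array 1, 19 and 2 without WT array 2, 47 and 14 without smDicer KO array 1, and 50 and 15 without smDicer KO array 2, of which 9, 15, 33 and 23 fallen genes were among the 40. In these fits the genotype left with 1 array is assumed to vary like the other. Cyclic loess gave 30 and 16, and arrays centred on their medians 53 and 10. Over all 45037 probe sets the split was 4232 lower and 2887 higher, 3279 and 3825 after cyclic loess, and 5158 and 2471 with median-centred arrays. The median difference of the members, -0.28, was -0.19 after cyclic loess, -0.20 with the mean of all probe sets of a gene, and -0.33 to -0.17 with 1 array left out. The anaphase-promoting complex list had -0.19 after cyclic loess and -0.35 to -0.23 with 1 array left out, and cytokinesis genes with septins had -0.28 after cyclic loess. The nucleotide supply list ranged from -1.06 to 0.09 with 1 array left out. The median of smDicer KO array 1 minus array 2 over the members, -0.03, was 0.01 when dim probe sets were filtered out. The causes were not tested. The replicate numbers are not stated to pair mice, and the values cannot settle whether they do. Pearson's r between the smDicer KO and WT differences of replicate 1 minus 2 was 0.259 over 20461 genes, and with the replicate block 34 members fell and 10 rose.

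Of the values of single genes under these alternatives, 1163 kept their direction and side of the threshold, 164 no longer passed it, 44 came to pass it and 76 changed sign. After cyclic loess scaling, the difference turned to 0.06 for Anapc5, 0.10 for Cdc42, 0.01 for Cdkn1b, 0.05 for Cntrob, 0.10 for Dnmt1, 0.05 for Incenp, 0.03 for Mapre1, 0.08 for Mcm7 and 0.08 for Rad21. With arrays centred on their medians, the difference turned to -0.02 for Cdt1, -0.03 for Nek1 and -0.01 for Ppp1cc. With the mean of all probe sets of a gene, the difference turned to -0.01 for Ccng1, -0.02 for Mapre2, -0.04 for Ncaph, 0.05 for Pafah1b1, 0.00 for Pard3, -0.05 for Ppp1cc and -0.00 for Zw10. With probe sets specific to 1 gene taken first, the difference turned to 0.39 for Anapc11, -0.03 for Ccng1, 0.22 for Cdca3, -0.14 for Cdt1, 0.09 for Kif20b, -0.18 for Mapre2, -0.17 for Ncaph, 0.04 for Pttg1 and 0.00 for Top2a. Leaving out 1 array at a time changed the sign within these ranges of the difference: -1.59 to 1.16 for Birc5, -1.66 to 0.20 for Ccnb2, -0.06 to 0.43 for Ccng1, -0.09 to 0.02 for Cdc42, -1.42 to 0.48 for Cdca3, -1.63 to 0.12 for Cdca8, -0.26 to 0.03 for Cdkn1b, -0.32 to 0.37 for Cdt1, -0.08 to 0.07 for Cntrob, -1.05 to 2.26 for Cuzd1, -0.17 to 0.14 for Dnmt1, -0.47 to 0.15 for H2afx, -0.44 to 0.36 for Incenp, -0.06 to 0.24 for Lats1, -0.42 to 0.52 for Lig1, -0.27 to 0.07 for Mapre1, -0.07 to 0.19 for Mapre2, -0.84 to 0.15 for Mcm5, -0.32 to 0.24 for Mcm7, -1.68 to 0.12 for Mki67, -0.14 to 0.33 for Ncaph, -0.14 to 0.16 for Nek1, -0.03 to 7.34 for Olfm4, -0.37 to 0.09 for Pafah1b1, -0.92 to 0.17 for Plk1, -0.09 to 0.15 for Ppp1cc, -0.98 to 0.19 for Septin6, -0.12 to 0.33 for Syce1, -0.48 to 0.04 for Tob2, -1.68 to 0.20 for Top2a and -1.39 to 0.24 for Ube2c. Values under 6 lie near the background of the arrays and limit what can be seen in the weakest members.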
